A study of Homo sapiens with 1 sample.

Results

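The 10 mature microRNAs (miRNAs) described here are both arms of 5 miRNA names, miR-143, miR-145, miR-126, miR-199a and miR-214, which are best known from stromal and endothelial cells. They were taken by name from the probes of 1 miRNA array, and they are 10 of the 2549 miRNAs on it. The array measured DLD-1, an established human colorectal carcinoma line, grown in RPMI medium with fetal bovine serum. The cells had received a negative control siRNA and are labelled si-NC (n = 1 array). In the study these cells served as the control for a knockdown of the circular RNA circLONP2. Arrays of the knockdown were not analysed here. The time from transfection to RNA extraction is not given in the sources used here. With 1 array there was no group to compare with and no biological replicate, so no p-value was computed, and every error below is technical.

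A miRNA hairpin is cut into a 5p arm and a 3p arm, and often 1 of them is kept as the guide that pairs with target messenger RNAs through its seed, bases 2 to 8. miR-143 and miR-145 are cut from a shared transcript and are known from smooth muscle cells and fibroblasts, where they favour the contractile state. In the colon their fall in tumour tissue was long read as a change in the epithelium and was later traced to the mesenchymal cells around it. miR-126 lies in an intron of EGFL7, a gene of blood vessel endothelium, and shapes the response of endothelial cells to VEGF. miR-199a and miR-214 share the DNM3OS transcript and are known from mesenchymal cells and fibroblasts.

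The mature sequences of all 10 were matched by name in RefSeq (GRCh38.p14). They are shown because the call for each arm rests on probes to these sequences, and the capitals mark the seed.
hsa-miR-126-3p: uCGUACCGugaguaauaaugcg
hsa-miR-126-5p: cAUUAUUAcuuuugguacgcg
hsa-miR-143-3p: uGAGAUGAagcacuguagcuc
hsa-miR-143-5p: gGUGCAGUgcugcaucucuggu
hsa-miR-145-5p: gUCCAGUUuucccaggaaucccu
hsa-miR-145-3p: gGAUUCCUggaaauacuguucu
hsa-miR-199a-3p: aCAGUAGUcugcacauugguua
hsa-miR-199a-5p: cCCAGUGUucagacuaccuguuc
hsa-miR-214-3p: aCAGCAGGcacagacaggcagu
hsa-miR-214-5p: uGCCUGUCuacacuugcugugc

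No seed is shared between any of the 10. MIR143 (chr5:149428918-149429023, plus strand) and MIR145 (chr5:149430646-149430733, plus strand) are 1622 bases apart, and both lie within the span of the long non-coding gene CARMN. MIR214 (chr1:172138798-172138907, minus strand) and MIR199A2 (chr1:172144535-172144644, minus strand) are 5627 bases apart, and both lie within the spans of DNM3 and DNM3OS. A second hairpin, MIR199A1 (chr19:10817426-10817496, minus strand, within the span of DNM2), gives the same mature arms as MIR199A2, so the array cannot tell these loci apart. MIR126 (chr9:136670602-136670686, plus strand) lies within the span of EGFL7. Its hairpin is shown whole because both of its arms gave a signal, and the capitals mark the 5p arm and then the 3p arm.
MIR126: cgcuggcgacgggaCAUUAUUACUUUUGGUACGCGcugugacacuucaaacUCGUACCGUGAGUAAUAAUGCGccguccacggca

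Both arms of miR-126 were called detected by the scanner software, and the 8 arms of miR-143, miR-145, miR-199a and miR-214 were not. The count was thus 2 of 10, where 44.4% of all 2549 miRNAs were called. The software calls a miRNA detected when the signal of at least 1 of its probes reaches 3 times its own error. Each of the 10 had 2 probes of 10 spots, which makes 200 spots in all. Of the 40 spots of miR-126, 40 were well above background by the flag of the software. Of the 160 spots of the other 8 arms, 1 was. That spot belonged to hsa-miR-199a-5p, had a background-subtracted intensity of 13.2 and was flagged as an outlier among its replicates. In RNA from a whole culture, fewer cells that make a miRNA and less of it per cell cannot be told apart.

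The background was read from 1000 negative control spots under 7 names. Their median background-subtracted intensity was 0.0894, their 99th percentile 16.1 and their highest value 45.4. The medians of the 7 names ran from -0.21 to 0.73. The software flags 63 of the negative control spots as outliers. Among them are all spots above 4.58 and some at lower values, down to -3.83. Without the 63 flagged spots the 99th percentile was 3.73 and the highest value 4.58. Both limits are given below, since they part the 8 undetected arms. Over the whole array no spot was saturated, 30.8% of the miRNA spots had an intensity below 0, and 2 of 9 quality metrics of the software were out of range, those for the labelling and the hybridisation spike-ins. The part of these metrics in the results was not tested.

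**Figure D1:**
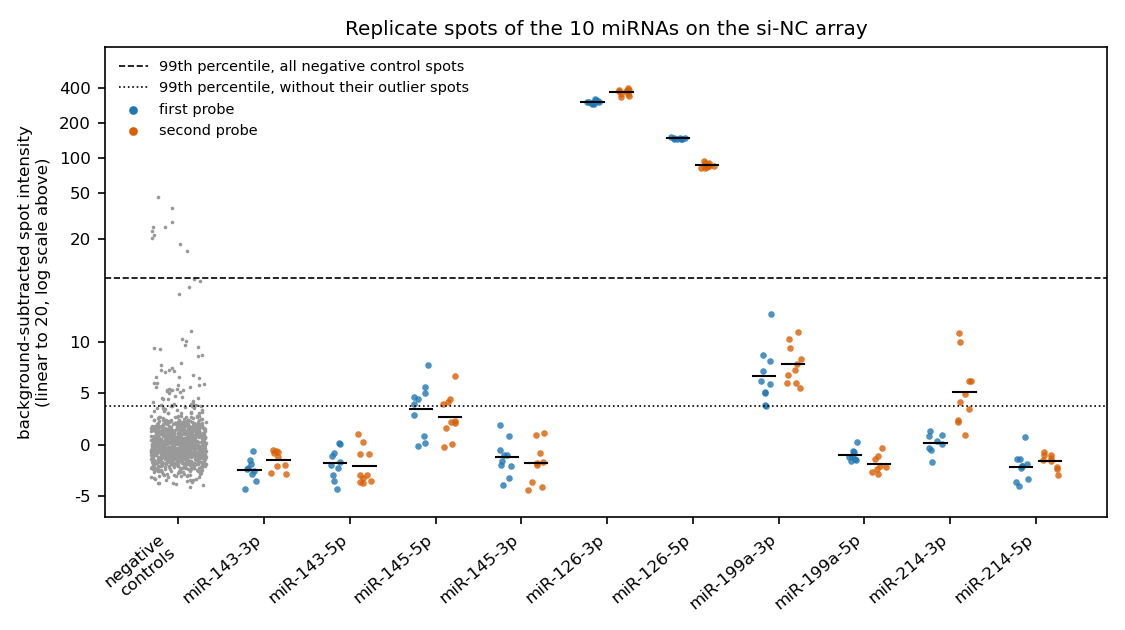
Background-subtracted intensity of each replicate spot of the 10 miRNAs (y axis, linear up to 20 and on a log scale above), split by probe, with the 1000 negative control spots in grey on the left. Horizontal bars are probe means, outlier-flagged spots of the miRNAs are left out, and the lines mark 16.1 (all negative control spots) and 3.73 (without their outlier spots). Both arms of miR-126 lie at 81.3 and higher, every spot of hsa-miR-199a-3p lies between the lines, and miR-143 lies around and below 0.

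hsa-miR-126-3p, the arm that represses the signalling inhibitors SPRED1 and PIK3R2 in endothelial cells, was far above background. Over the 10 spots of its first probe the lowest, median and highest intensity were 290, 304 and 319, and over the 10 spots of its second probe 334, 375 and 399. The probe means were 303 ± 8.84 and 368 ± 20.9 (SD, 10 spots each). No spot of hsa-miR-126-3p overlapped with any negative control spot, of which the highest was 45.4. The probes themselves did not overlap either, and the second exceeded the first by 0.28 ± 0.03 on the log2 scale (SE from replicate spots). A difference of that size or more was seen for 53.6% of the 651 detected miRNAs with 2 probes well above background, so the probes of hsa-miR-126-3p matched about as well as those of most miRNAs.

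hsa-miR-126-5p, the arm cut from the other side of the same stem, is known to act in endothelial cells on the Notch inhibitor DLK1. The 8 unflagged spots of its first probe ran from 144 to 151 with a median of 147, and the 9 of its second probe from 81.3 to 94.2 with a median of 85.04. The probe means were 147 ± 2.44 and 86.3 ± 4.46 (SD). All these spots were above the highest negative control spot. The 3 spots of hsa-miR-126-5p left out as outliers had intensities of 102, 135 and 138 and were also well above background. Here the probes disagreed more, by 0.77 ± 0.03 on the log2 scale, a difference reached by 21.5% of the 651 miRNAs. The spread between the probes of hsa-miR-126-5p was therefore larger than the spread between its spots, and a single intensity for this arm carries that uncertainty.

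Summed over probes, the total gene signal was 123 ± 8.75 (error from the software) for hsa-miR-126-3p and 42.6 ± 3.19 for hsa-miR-126-5p. Among the 1133 detected miRNAs 83.2% had a lower total gene signal than hsa-miR-126-3p, which ranked 190, and 71.8% had a lower one than hsa-miR-126-5p, which ranked 319. The arms are read by different probes, so the difference between them is not a ratio of their amounts. Against the 75th percentile of spots of detected miRNAs, an intensity of 143, the log2 level was 1.23 ± 0.07 for hsa-miR-126-3p (SD of replicate spots about their probe mean, 20 spots) and -0.37 ± 0.06 for hsa-miR-126-5p (17 spots). The side of that reference on which hsa-miR-126-5p lay depended on the probe, since the level was 0.041 on its first probe alone and -0.73 on its second. In the table of log2 values normalized by the authors, hsa-miR-126-3p stood at 6.93 and hsa-miR-126-5p at 5.50, and the other 8 arms shared the floor of 2.32.

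**Figure D2:**
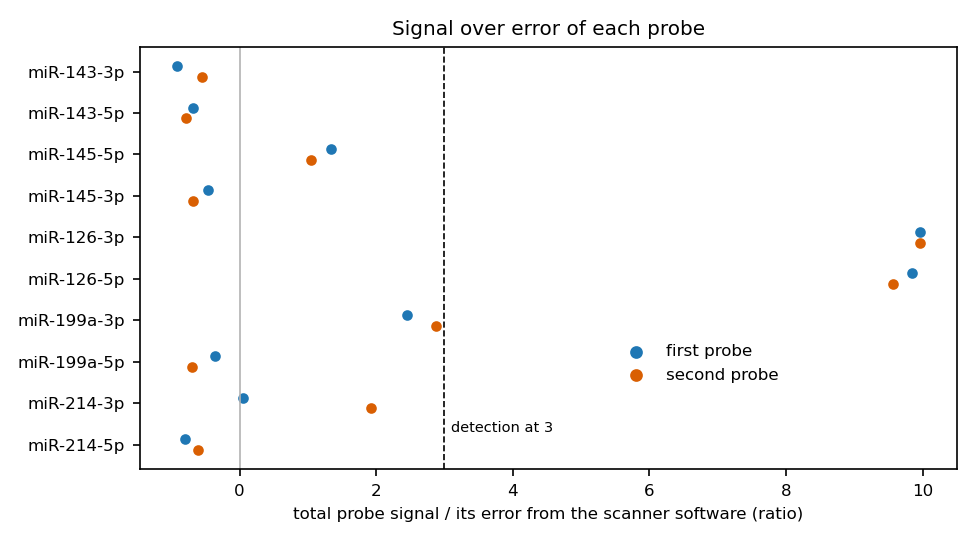
Total probe signal divided by its error from the scanner software (x axis, a ratio) for both probes of each of the 10 miRNAs, with the detection limit of 3 as a dashed line and 0 as a grey line. The 4 probes of miR-126 lie between 9.56 and 9.96, and the 16 other probes between -0.92 and 2.87.

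The ratio of probe signal to error left a wide gap between the arms. The detection call is made from this ratio, so the gap is no separate support for the calls. The ratio was 9.56 to 9.96 for the 4 probes of miR-126. For the 16 probes of the other arms it ran from -0.92 to 2.87, and 10 of them were below 0. Over the whole array the best probe of a detected miRNA had a ratio of at least 3.00 and that of an undetected one of at most 2.99, so the highest of the 8 undetected arms lay just under the limit.

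That arm was hsa-miR-199a-3p, which is made in fibroblasts and other mesenchymal cells and is known to repress MET and MTOR. Its spots had a lowest, median and highest intensity of 3.75, 6.95 and 12.7 (20 spots). The probe means were 6.65 ± 2.70 and 7.84 ± 1.89 (SD, 10 spots each), with ratios of signal to error of 2.46 and 2.87. Of the 20 spots, 0 were above the 99th percentile of all negative control spots and 18 were above their 95th percentile, 4.79. All 20 were above the 99th percentile of the negative controls without outliers. The flag of the software for a positive and significant spot, which 9.90% of the negative control spots carry, was set for 20 of 20. Its intensity was higher than that of 99.2% of the 1416 undetected miRNAs. Against limits taken separately from the upper and the lower rows of the array, the answers for hsa-miR-199a-3p differed. In the upper rows 0 of 11 spots exceeded the 99th percentile of the negative controls there, 20.4, and in the lower rows 6 of 9 exceeded theirs, 7.32. Each limit came from 500 negative control spots, of which 42 in the upper and 21 in the lower rows were flagged as outliers. The mean of hsa-miR-199a-3p was 6.42 ± 1.07 in the upper rows and 8.25 ± 3.09 in the lower (SD over spots). On these measurements the arm was above most of the background and below the limit for detection, and neither presence nor absence was settled at this signal over background. Its probes cannot name the source either: miR-199b-3p, cut from another hairpin, has the identical 22 bases in RefSeq and no entry of its own on the array.

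hsa-miR-199a-5p, the arm cut from the same hairpins, gave no such signal. Its 16 unflagged spots ran from -2.85 to 0.28 with a median of -1.34, and 1 of them was above 0. The probe means were -0.95 ± 0.61 and -1.83 ± 0.86 (SD, 8 spots each). The related miR-199b-5p was also called undetected, with a mean of -0.25 ± 1.62 (SD, 20 spots).

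hsa-miR-214-3p, the guide arm of the neighbouring hairpin and known to repress EZH2, was read differently by its probes. The first had a mean of 0.14 ± 0.96 (SD, 8 spots) with a highest spot of 1.34, and the second a mean of 5.16 ± 3.25 (SD, 10 spots) with a highest spot of 10.8. Of its 18 unflagged spots, 6 were above 3.73, and 0 were above 16.1. In the lower rows of the array 1 of 7 was above the limit of those rows, 7.32. The ratio of signal to error was 0.055 for the first probe and 1.93 for the second, so the probes disagreed on the unflagged spots. The first probe also had 2 spots flagged as outliers, at 5.30 and 11.5, neither well above background, and the higher of them exceeded every spot of the second probe. hsa-miR-214-5p, the passenger arm, had unflagged spots from -4.02 to 0.78 with a median of -1.85 (19 spots), of which 1 was above 0. Its flagged spot, at 4.54, was not well above background.

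hsa-miR-145-5p, the arm that supports smooth muscle differentiation through repression of KLF4 and KLF5, lay above the median of the negative controls. Its 20 spots ran from -0.19 to 7.80 with a median of 3.42, and 18 of them were above 0. The probe means of 3.53 ± 2.56 and 2.75 ± 2.09 (SD, 10 spots each) differed by less than the spread of the spots, with ratios of 1.33 and 1.04. Of its spots 10 were above 3.73, and 0 were above 16.1. hsa-miR-145-3p had unflagged spots from -4.35 to 1.98 with a median of -1.61 (19 spots), of which 4 were above 0. Its flagged spot, at 7.07, was not well above background.

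hsa-miR-143-3p, in normal colon one of the most abundant miRNAs of the muscle wall, gave intensities below 0. Its 18 unflagged spots ran from -4.24 to -0.47 with a median of -1.99, and none was above 0. The probe means were -2.40 ± 1.07 and -1.45 ± 0.94 (SD, 9 spots each). Its 2 flagged spots, at 5.62 and 7.59, were not well above background. hsa-miR-143-5p had spots from -4.26 to 1.04 with a median of -2.07 (20 spots), of which 4 were above 0.

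**Figure D3:**
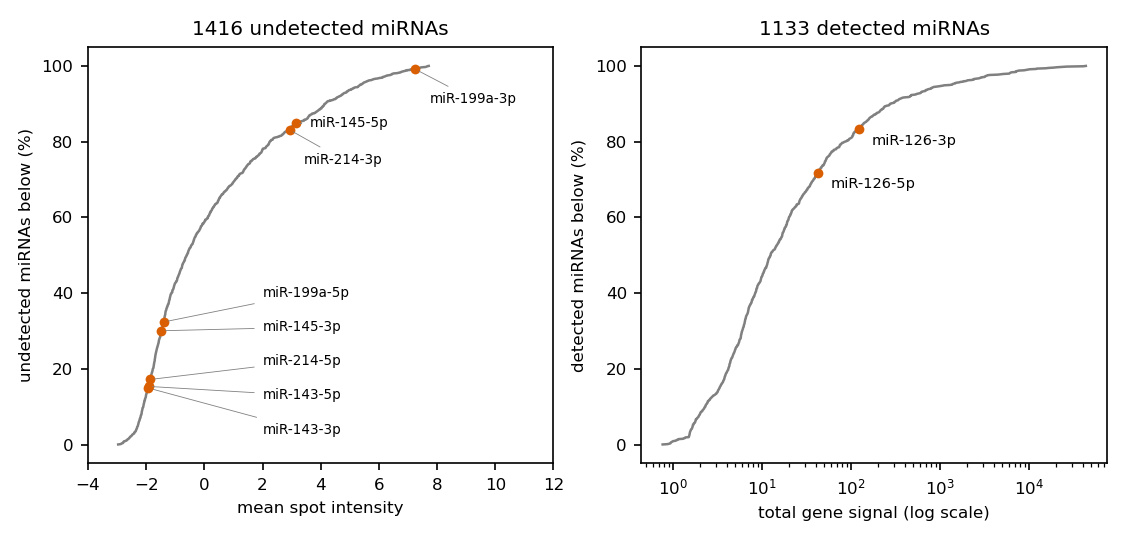
Place of the 10 miRNAs (orange) on the cumulative curves of the whole array (grey). Left, mean spot intensity of the 1416 undetected miRNAs (x axis) against the share of them below (%). Right, total gene signal of the 1133 detected miRNAs (x axis, log scale) against the share below. hsa-miR-199a-3p lies above 99.2% of the undetected miRNAs, and 5 undetected arms lie between 15.0% and 32.4%.

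The 8 undetected arms thus fell into different places among the 1416 undetected miRNAs, whose mean intensity had a median of -0.61 and a 5th and 95th percentile of -2.28 and 5.36. Means below 0 were found for 5 of the 8, hsa-miR-143-3p, hsa-miR-143-5p, hsa-miR-145-3p, hsa-miR-199a-5p and hsa-miR-214-5p, and for 58.7% of all undetected miRNAs. These 5 means ran from -1.93 to -1.39, higher than 15.0% to 32.4% of the undetected miRNAs, and their medians were below those of all 7 names of negative controls. The means of hsa-miR-214-3p and hsa-miR-145-5p, 2.93 ± 3.54 and 3.14 ± 2.31 (SD over spots), were higher than 83.1% and 84.8% of the undetected miRNAs. In miR-145, miR-199a and miR-214 it was in each case 1 arm that had a mean above 0, while both arms of miR-143 were below it.

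The calls were read under other rules for detection. Both arms of miR-126, and no other of the 10, passed under 4 stricter rules. Where 1 probe needed 50% of its spots to be well above background, 37.9% of all miRNAs passed, and where every probe needed it, 29.4% did. With a median spot above 16.1 it was 31%, and with a total gene signal of at least 5 it was 33.3%. The limit of 3.73 in place of 16.1 added hsa-miR-199a-3p, which made 3 of 10, where 50.6% of all miRNAs passed. Asking only that 50% of the spots be positive and significant added hsa-miR-199a-3p and hsa-miR-145-5p, which made 4 of 10, where 54.6% passed. These 2 looser rules were added after the values had been seen. The limit of 3.73 leaves out flagged spots of both the miRNAs and the negative controls, whereas 16.1 leaves them out for the miRNAs only. miR-143 and miR-214 were called under none of the rules tried.

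Related miRNAs could share sequence with a probe. RefSeq lists 6 other miRNAs with the seed of 1 of the 10, of which 5 are on the array. miR-6088 was the 1 called detected, with a total gene signal of 35.3 ± 2.60 and 20 of 20 spots well above background. The sequences are shown because miR-6088 shares a run of 10 bases with hsa-miR-143-3p, as does the undetected miR-4770.
hsa-miR-143-3p: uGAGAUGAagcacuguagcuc
miR-6088: aGAGAUGAagcgggggggcg
miR-4770: uGAGAUGAcacuguagcu
The signal at the probes of miR-6088, a mean of 96.01 ± 11.5 (SD, 19 spots), stood beside an intensity below 0 at those of hsa-miR-143-3p. The seeds of hsa-miR-214-3p and hsa-miR-199a-3p are shared with miR-761, miR-3619-5p and miR-3129-5p, all called undetected. The mean of miR-761 was 4.06 ± 2.63 (SD, 19 spots). For hsa-miR-126-3p and hsa-miR-126-5p, no other miRNA in RefSeq has the same seed. The closest sequences, miR-12132 and miR-29a-5p, are 7 and 8 edits away (bases changed, added or removed). miR-12132 is not on the array, and miR-29a-5p was called detected, with a total gene signal of 184. GC content was 45.5% and 38.1% for the miR-126 arms and ran from 40.9% to 59.1% for the others.

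**Figure D4:**
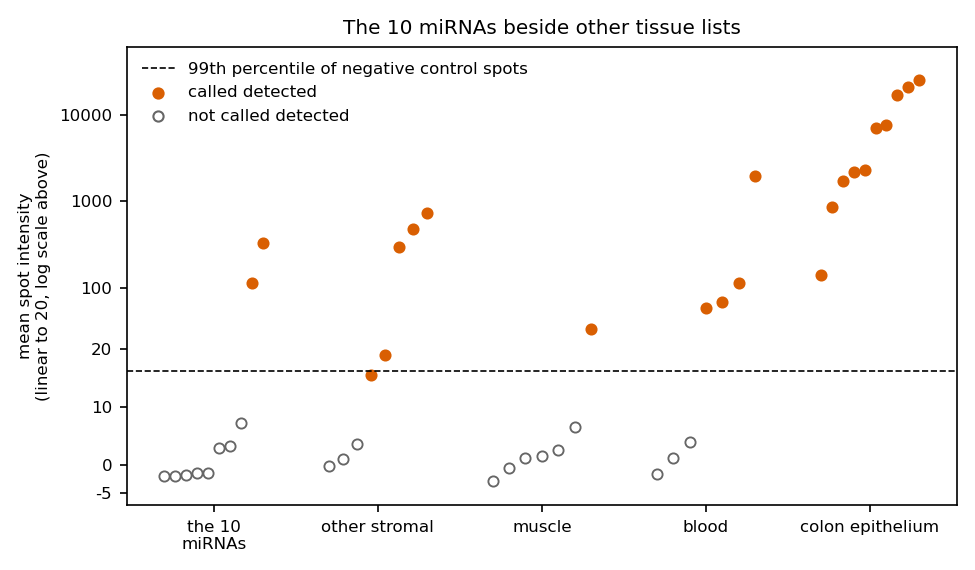
Mean spot intensity (y axis, linear up to 20 and on a log scale above) of each miRNA in 5 sets, with filled points for miRNAs called detected and open points for the others. The dashed line marks the 99th percentile of the negative control spots, 16.1. The 10 colon epithelium miRNAs are all filled, and 2 of the 10 miRNAs described here are.

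Other tissue lists give the setting. All 10 colon epithelium miRNAs were called detected, such as miR-200a-3p at a total gene signal of 6109 ± 441 and miR-200b-3p at 9249 ± 657, which belong to a family that keeps cells epithelial. Their total gene signals ran from 52.2 to 9249. Whether these miRNAs are particular to colon was not tested, and the lists were chosen with earlier results of these data known. Of 8 other miRNAs known from stromal cells 5 were called detected. These were miR-140-5p at 265 ± 18.8 and miR-140-3p at 110 ± 8.07, both from an intron of WWP2 and best known from cartilage, miR-195-5p at 178 ± 16.03 and miR-497-5p at 7.05 ± 0.85, which share a cluster, and miR-127-3p at 5.64 ± 0.79, an imprinted miRNA. The undetected ones were miR-199b-5p, miR-218-5p and miR-379-5p. Where the median spot had to be above 16.1, 4 of the 8 passed, and miR-127-3p, with a median of 14.9, did not. The spots of miR-195-5p ran from 92.7 to 918 over its probes. Their SD was 81.0% of their mean, whereas the error from the software was 9.02% of the signal. Related sequences were looked up for the 10 miRNAs described here and not for those of these lists. Whether the probes of miR-195-5p also read related miRNAs was therefore not tested. Of 7 muscle miRNAs 1 was called detected, miR-499a-5p at 12.4 ± 1.11, and miR-1-3p, miR-133a-3p, miR-133b, miR-206, miR-208a-3p and miR-208b-3p were not. Of 7 blood miRNAs 4 were called detected, such as miR-142-3p at 695 ± 50.05 and miR-142-5p at 41.8 ± 3.04. In all, 10 of the 22 miRNAs of the stromal, muscle and blood lists were detected, beside the 44.4% of all miRNAs.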

How the data were processed

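The labels name Cyanine 3-pCp for labelling the RNA, whereas the study's methods name a kit for cDNA, which was left unsettled. Feature Extraction 11.0.1.1 read the scanned image (array design on hg19), per the file headers. Per spot, the deposited intensity is background-subtracted and not normalized between arrays, with flags and a total gene signal with its error. The authors also deposited log2 values, quantile normalized in GeneSpring, with a scale and floor read here from the values. Undetected miRNAs carry a placeholder signal of 0.1 and error of 1 in the scanner file. Columns of per-sample values left out numbered 0.

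Intensity was kept on the linear scale, since most of the 10 miRNAs lie near 0. Outlier-flagged spots were left out of means and spot counts (4.51% of miRNA spots, 13 of the 200), but not of the counts by flag. Percentiles of the negative control spots include their outliers unless stated. Probes are numbered by their name. The error of a probe signal includes a part proportional to the signal, so its ratio levels off near 10. Mature and hairpin sequences and their coordinates are those of RefSeq on GRCh38.p14 and do not come from the array design. The tools were limma 3.58.1 in R 4.3.3 for normexp (offset 50), and matplotlib 3.10.9, scipy 1.17.1, numpy 2.4.6 and pandas 2.3.3 in Python 3.11.15. The calculations were tested on simulated spots laid out as the 2549 miRNAs: 100% of 200 miRNAs with a signal and 0% of the others passed the rule on negative control spots. The simulated signals were far above the noise, and the simulated negative controls had no outlier spots. The test thus checks the calculation and cannot tell how the rule treats weak signals such as that of hsa-miR-199a-3p.

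The rule for naming took the 10 miRNAs, the miR-199b arms, detected miRNAs with a shared seed, detected stromal and muscle miRNAs, and the first 2 entries of the colon and blood lists. Undetected miRNAs beside them were named after their values were seen. The miRNAs and lists were chosen with earlier results of these data known. The alternatives were other detection rules, other limits from the negative control spots (95th percentile, highest spot, the upper and the lower rows), outlier spots kept, medians, normexp, another reference percentile, the deposited values and each probe alone. Counts were taken as unchanged within 1.5 times, single values within 1 SD over spots and shares of spots within a 95% Wilson interval, which covers counting error only. The single array limits the precision.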

Additional observations from a re-analysis of the deposited data

How the results depend on the processing

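Over 33 results, 152 alternative values were computed, of which 120 stayed within their limits. Some of them could hardly differ. The rank among detected miRNAs repeats the overall rank, and the deposited floor called as many miRNAs, 1133, as the flag. A rise from 2 to 3 detected arms was counted as unchanged. No paired analysis was possible because there was 1 array. The count of detected arms, 2 of 10, moved to 4 where 50% of the spots had to be positive and significant, and the muscle count moved from 1 to 2 under that rule and under the limit without outliers among the negative controls, a change made after the values were seen. With the same limit, arms with 50% of their spots above it rose from 2 to 4. The added arms were miR-199a-3p with 20 of 20 spots and miR-145-5p with 10 of 20. The median of miR-145-5p, 3.42, was below the limit, so the rule on the median spot left it out. The share of all miRNAs that would pass this rule on spots was not computed. The median intensity over the 10, 0.77, moved to 58.3 with normexp, whose offset of 50 is added to every signal. The log2 level of miR-126-3p, 1.23, became 3.67 against the reference from all miRNA spots, 0.96 after normexp, 1.10 in the deposited values, and 1.36 and 1.09 with the first and the second probe left out. That of miR-126-5p, -0.37, turned to 2.08 against that same reference, which fell from 143 to 26.3, and to 0.041 with the second probe left out. It moved to -0.23 with normexp and -0.73 with the first probe left out. Apart from these log2 levels, 18 values of single arms moved (spot intensities and shares of spots above a limit), 10 of them with normexp. The other 8 moved under a lower limit from the negative control spots or, for miR-199a-5p, with its flagged spots kept. Apart from the offset, the lower reference, the lower limits, the flagged spots and the probes left out, the cause was not tested. What can be said is limited by signal over background for miR-199a-3p, miR-145-5p and miR-214-3p.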
